A study of Mus musculus with 44 samples.

Results

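Transcript levels of 8 genes that encode transcription factors of the endoderm, Foxa1, Foxa2, Foxa3, Sox7, Sox17, Gata4, Gata6 and Hnf4a, were followed through 44 RNA-seq libraries of lineage-traced mouse embryos. The genes were picked out by name in the gene tables of the series, without a threshold on any measured value, although earlier results of these data were known when they were chosen. Each of the 8 names matched a single gene identifier, so that the members are 8 of 32287 genes, of which 21704 are protein-coding.

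Diploid embryos were made by aggregating GFP+ embryonic stem cells (labelled G4, from a single male F1G4 line with an EGFP knock-in) with mCherry+ morulae (labelled CD1/G4), which places the GFP reporter in embryonic cells and mCherry in cells of extraembryonic origin. The morulae came from CD-1 females and mCherry+ males of a colony maintained by crosses to C57BL/6J. At E6.5, wild-type (WT) epiblast (Epi), distal extraembryonic endoderm (exEndo1) and proximal extraembryonic endoderm (exEndo2) were isolated by hand from single embryos (n = 4 libraries each). At E9.5, EPCAM+ cells of WT embryos were sorted from pools of 4 embryos as yolk sac endoderm (YsEndo, mCherry+), embryonic midgut and hindgut (emMidgut, emHindgut, GFP+ with low mCherry) and extraembryonic midgut and hindgut (exMidgut, exHindgut, mCherry+), again with n = 4 each. At E13.5, EPCAM+ cells came from the small intestine and colon of single embryos (n = 3 each), with the embryonic groups (emSI, emColon, GFP+) WT and the extraembryonic groups (exSI, exColon, mCherry+) from Trp53 KO morulae, in which the gene was disrupted in the zygote. Per the study's methods all GFP+ cells are male, and mCherry+ cells may be of either sex. Origin therefore changes together with host strain at every stage, possibly with sex, and also with genotype at E13.5, and these cannot be told apart. In the text, exGut and emGut are the 8 midgut and hindgut libraries of each origin. Each E13.5 intestine was split into its 2 organs and both reporters were present in an embryo, so libraries of different groups may share an embryo, and those of the E9.5 regions a pool. The labels do not tie them together. Tests that pool both organs or regions treat them as independent, so that their p-values may be too small. Where both arms of an origin comparison share embryos or pools, ignoring this may instead make p-values too large. The exGut against emGut test also leaves region in its error, and a fit with region as a covariate is given beside it.

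FOXA proteins bind their sites in closed chromatin and open it for other factors during gut and liver development, and GATA4 and GATA6 act with them in endoderm of both origins. In the early embryo GATA6 starts the primitive endoderm programme, with GATA4, SOX17 and SOX7 downstream of it, and this lineage gives rise to the visceral and yolk sac endoderm. SOX17 is also required for definitive endoderm, which forms from the epiblast, and HNF4A is a nuclear receptor that drives genes of lipid and serum protein export in visceral endoderm, liver and intestine.

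Levels are given as TPM, a unit scaled by transcript length and library total and meant for comparing genes within a library. Read coverage did not follow TPM alike in all members. In exEndo1 replicate 2, Gata4 had 71.1 TPM at a mean read coverage of 27.0, and Foxa1 had 13.9 TPM at 50.2. Coverage and TPM also parted between libraries for the same gene. In emColon, Hnf4a had 56.8 TPM at a coverage of 39.6 in replicate 1, and 31.4 TPM at 43.1 in replicate 2. The aligned sequence implied for these libraries was 5.59 and 6.60 gigabases. The reason was not tested, so comparisons and sums of TPM over different members are approximate. Levels of a single member across libraries and groups, and their spread, carry this uncertainty too. Differences are given as log2 fold changes of TPM + 1, a scale that understates changes of genes with low TPM. Tests used limma with Benjamini-Hochberg adjustment over all genes of a comparison. Calls required an adjusted p below 0.05 and a log2 difference of more than 1 in either direction, or the adjusted p alone for interactions. Overlap between groups is described without a count of how many of all genes did not overlap. The aligned sequence implied by the coverage ran from 3.53 to 12 gigabases per library, and 10382 to 13596 genes exceeded 1 TPM. The mCherry transgene was at 1731 to 8667 TPM in the 26 extraembryonic libraries and at 6.61 TPM or less in the 18 embryonic ones, while EGFP was at 179.6 to 880.2 TPM in the embryonic and at 15.9 TPM or less in the extraembryonic libraries. Libraries labelled as gut carried the epithelial markers, with summed levels of 7 such genes of 2105 to 6794 TPM at E9.5, and 8 yolk sac endoderm markers summed to 6885 to 9122 TPM in YsEndo. The labels of Epi disagree in part, since title and tissue say epiblast while the extraction text speaks of EmVE tissue. In these libraries 7 epiblast markers summed to 2607 to 4295 TPM, against 419 to 591 TPM in exEndo1. In bulk samples such as these, fewer cells of a type and less RNA per cell cannot be told apart.

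3 of the loci overlap transcripts of the other strand, and reads of such partners cannot be separated because the libraries keep no strand. For Sox17 (ENSMUSG00000025902, mm10 chr1:4490931-4497354, minus strand) the partner Gm37587 reached 4.04 TPM at most. For Gata6 (ENSMUSG00000005836) the partner 1010001N08Rik reached 26.9 TPM in 1 emSI library. Its mean was 14.6 TPM in emMidgut and 1.25 TPM in emHindgut, so both the Gata6 level and its difference between regions carry this uncertainty, as do the levels at E13.5. For Hnf4a (ENSMUSG00000017950, chr2:163506808-163572910, plus strand) the partner Hnf4aos was at 0 TPM in every midgut and hindgut library and at 2.11 to 8.43 TPM in the exEndo1, exEndo2 and YsEndo libraries. In exSI it reached 7.67 TPM (mean 2.56 TPM), so the Hnf4a levels of these groups carry the same uncertainty. A small nuclear RNA gene, Gm25881, lies on the same strand within the locus. No overlapping gene was annotated for Foxa1 (ENSMUSG00000035451, chr12:57540628-57546916, minus), Foxa2 (ENSMUSG00000037025, chr2:148042877-148046969, minus), Foxa3 (ENSMUSG00000040891, chr7:19013284-19023538, minus), Sox7 (ENSMUSG00000063060, chr14:63943673-63950732, plus) or Gata4 (ENSMUSG00000021944, chr14:63198922-63271692, minus).

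Promoter sequences in the RefSeq table (build GRCm38.p6, 250 bases before to 50 after a start) matched 4 of the 8 genes, with 1 entry for Foxa1, 3 for Foxa2, 1 for Foxa3 and 2 for Hnf4a. Those of Foxa1 and of the upstream Hnf4a start are shown because these genes gave contrasting patterns, Foxa1 in gut and distal but not proximal extraembryonic endoderm, Hnf4a in both but not in the hindgut, and because letters of endodermal factor motifs occur in them. The windows are chr12:57546062-57546361 (minus strand) for Foxa1 and chr2:163506607-163506906 (plus) for the upstream Hnf4a start. The Foxa1 window lies within the span of the gene given above, so its start is internal to that annotation. Sequences run 5′ to 3′, and capitals mark matches on either strand. The forkhead motif was searched as TGTTTAC. The GATA motif was searched as AGATAA.
Foxa1 promoter: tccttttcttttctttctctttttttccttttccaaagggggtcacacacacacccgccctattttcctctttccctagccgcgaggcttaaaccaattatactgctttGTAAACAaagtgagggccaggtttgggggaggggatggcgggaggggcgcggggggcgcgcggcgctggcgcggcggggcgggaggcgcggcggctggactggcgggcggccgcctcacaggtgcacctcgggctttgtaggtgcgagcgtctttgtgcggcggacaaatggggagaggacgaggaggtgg
Hnf4a upstream promoter: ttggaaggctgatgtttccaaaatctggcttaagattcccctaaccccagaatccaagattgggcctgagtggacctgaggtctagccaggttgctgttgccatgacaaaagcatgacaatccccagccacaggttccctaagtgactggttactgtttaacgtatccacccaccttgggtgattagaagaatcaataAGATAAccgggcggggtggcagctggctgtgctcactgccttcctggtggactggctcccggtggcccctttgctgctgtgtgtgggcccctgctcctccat
In the Foxa1 window the forkhead letters stand on the opposite strand 141 bases before that internal start. The upstream Hnf4a window holds the GATA letters 52 bases before the start. Of all 32851 promoters of 300 bases, 3.65% hold the forkhead letters and 11.2% the GATA letters, so that these matches describe the sequence and show no binding. The Foxa1 window holds 26 CpG dinucleotides and the upstream Hnf4a window holds 4, against a median of 7 over all promoters. A second GATA form, TGATAA, was searched on both strands too, and is held by 9.05% of all promoters. The SOX motif ATTGTT is held by 10.7%. The HNF4 motif CAAAGTCCA is held by 0.475%. None of these letters occurs in the 7 windows of the 4 genes.

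**Figure D1:**
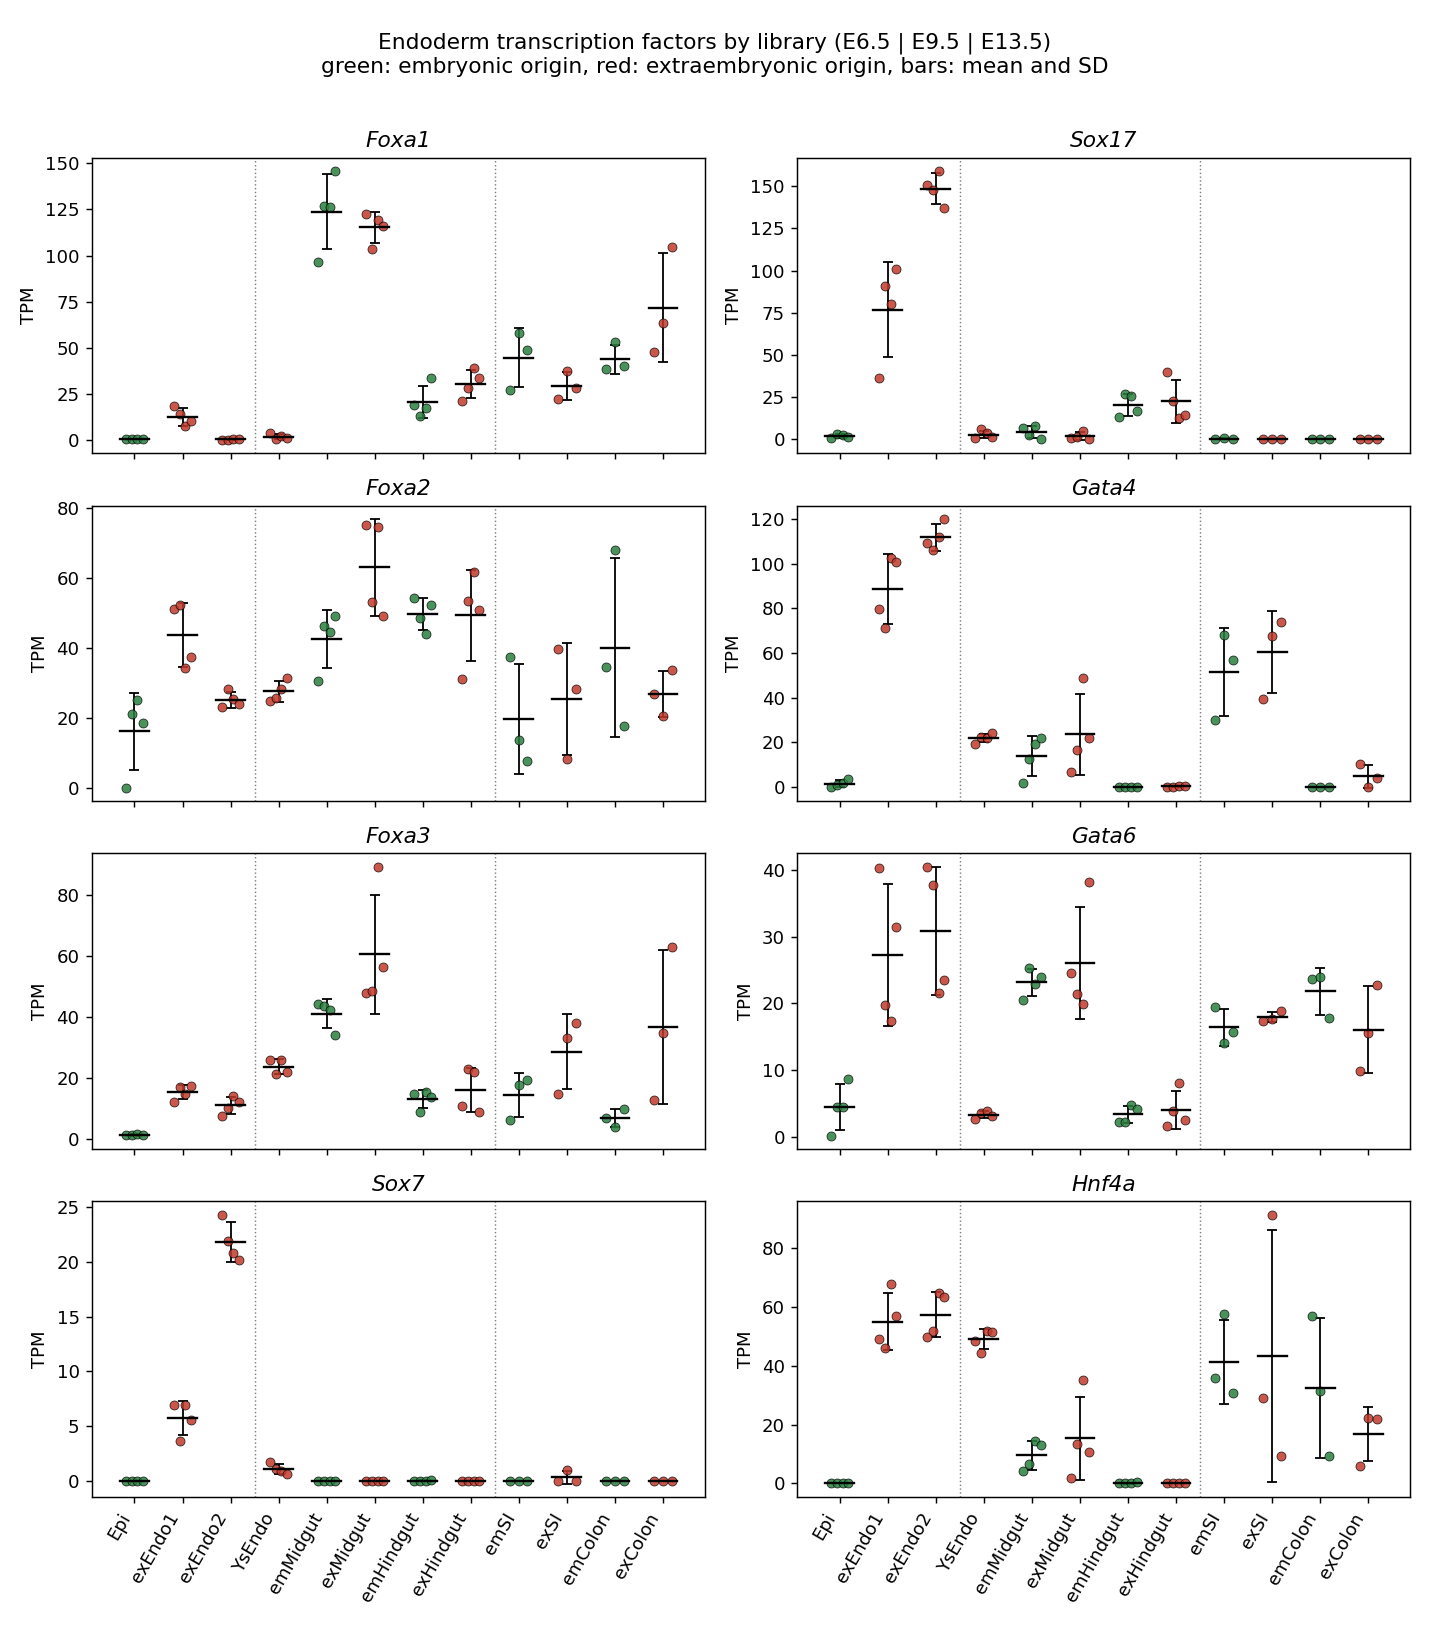
TPM of each of the 8 transcription factor genes (panels) in every library (points), by group, on linear TPM axes, with bars for the mean and SD, green for embryonic and red for extraembryonic origin. Foxa1 was highest in the midgut libraries (96.3 to 146 TPM), and Sox7 was at 1 TPM or more only in exEndo1, exEndo2 and some YsEndo libraries.

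Foxa1 was at its highest in the E9.5 midgut, with 96.3, 127, 126 and 146 TPM in emMidgut and 122, 103, 119 and 116 TPM in exMidgut. The hindgut had 18.9, 12.8, 17.5 and 33.3 TPM in emHindgut and 21.0, 27.9, 38.7 and 33.5 TPM in exHindgut. At E13.5 the libraries of all 4 groups lay between 22.4 TPM (exSI) and 105 TPM (exColon), and neighbouring groups overlapped in the order of means from emMidgut down to exEndo1. Outside the gut the gene was low, with 0.481 to 3.51 TPM in YsEndo, 0.204 to 0.474 TPM in Epi and at most 0.489 TPM in exEndo2. exEndo1, with 18.3, 13.9, 7.57 and 9.93 TPM, lay above every other library from outside the gut.

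Foxa2, the family member required for node and definitive endoderm formation, was present in every group. Its means ran from 16.3 TPM ± 11.1 (SD, n = 4) in Epi to 63.2 TPM ± 13.8 (SD, n = 4) in exMidgut, and each group overlapped with its neighbour in the order of means. Foxa3, which is expressed in visceral endoderm and gut and acts in liver metabolism, had its highest levels in exMidgut (47.9, 48.5, 89.2 and 56.3 TPM) and emMidgut (44.02, 43.6, 42.3 and 34.1 TPM). The lowest were in Epi (1.012 to 1.48 TPM), which lay below every other library.

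Sox17 was highest in exEndo2, with 151, 148, 159 and 137 TPM, and exEndo1 had 36.0, 90.6, 80.0 and 101 TPM. Both hindgut groups followed, with 12.7, 26.5, 25.2 and 16.4 TPM in emHindgut and 39.7, 22.6, 12.2 and 14.2 TPM in exHindgut, and all 8 lay above every midgut library (0 to 7.32 TPM). At E13.5 the gene was listed at 0 in 11 of 12 libraries and at 0.467 TPM in 1 emSI library. Sox7, its close relative, was at 24.3, 21.9, 20.9 and 20.1 TPM in exEndo2, at 6.93, 3.64, 6.90 and 5.58 TPM in exEndo1 and at 0.613 to 1.72 TPM in YsEndo. In the gut of either origin and in Epi it was at or near 0, with a highest value of 0.982 TPM in 1 exSI library. Both SOX genes are also known from endothelium, and 6 endothelial markers summed to at most 29.0 TPM in any library, with 1.18 to 9.17 TPM in exEndo1 and exEndo2.

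Gata4 had 109, 106, 112 and 120 TPM in exEndo2 and 79.8, 71.1, 103 and 101 TPM in exEndo1. In the gut it was present in the midgut and small intestine, with 1.81, 12.3, 19.4 and 21.8 TPM in emMidgut, 6.55, 16.6, 48.8 and 22.1 TPM in exMidgut, 29.9 to 68.2 TPM in emSI and 39.6 to 74.1 TPM in exSI. In emHindgut and emColon every library was listed at 0, exHindgut reached 0.469 TPM at most, and exColon had 10.1, 0 and 3.89 TPM. Gata6 spanned a narrower range, from 3.29 TPM ± 0.55 (SD, n = 4) in YsEndo to 30.8 TPM ± 9.65 (SD, n = 4) in exEndo2. It was low in the hindgut (1.60 to 8.08 TPM), and unlike Gata4 it was at 9.77 to 23.9 TPM in the 6 colon libraries.

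Hnf4a was alike in exEndo1 (49.0, 46.0, 67.9 and 57.0 TPM), exEndo2 (49.8, 51.8, 64.7 and 63.2 TPM) and YsEndo (48.6, 44.3, 51.8 and 51.5 TPM), and these groups overlapped. In the midgut it was lower and more spread, with 4.27, 6.54, 14.4 and 13.02 TPM in emMidgut and 1.71, 13.51, 35.3 and 10.6 TPM in exMidgut. All 8 hindgut libraries lay at or under 0.308 TPM and all Epi libraries at or under 0.0322 TPM. At E13.5 every library of both organs was between 6.07 and 91.3 TPM. Summed over the 8 genes, the level was 407 TPM ± 7.72 (SD, n = 4) in exEndo2, 325 TPM ± 28.2 (SD, n = 4) in exEndo1 and 25.3 TPM ± 15.8 (SD, n = 4) in Epi.

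**Figure D2:**
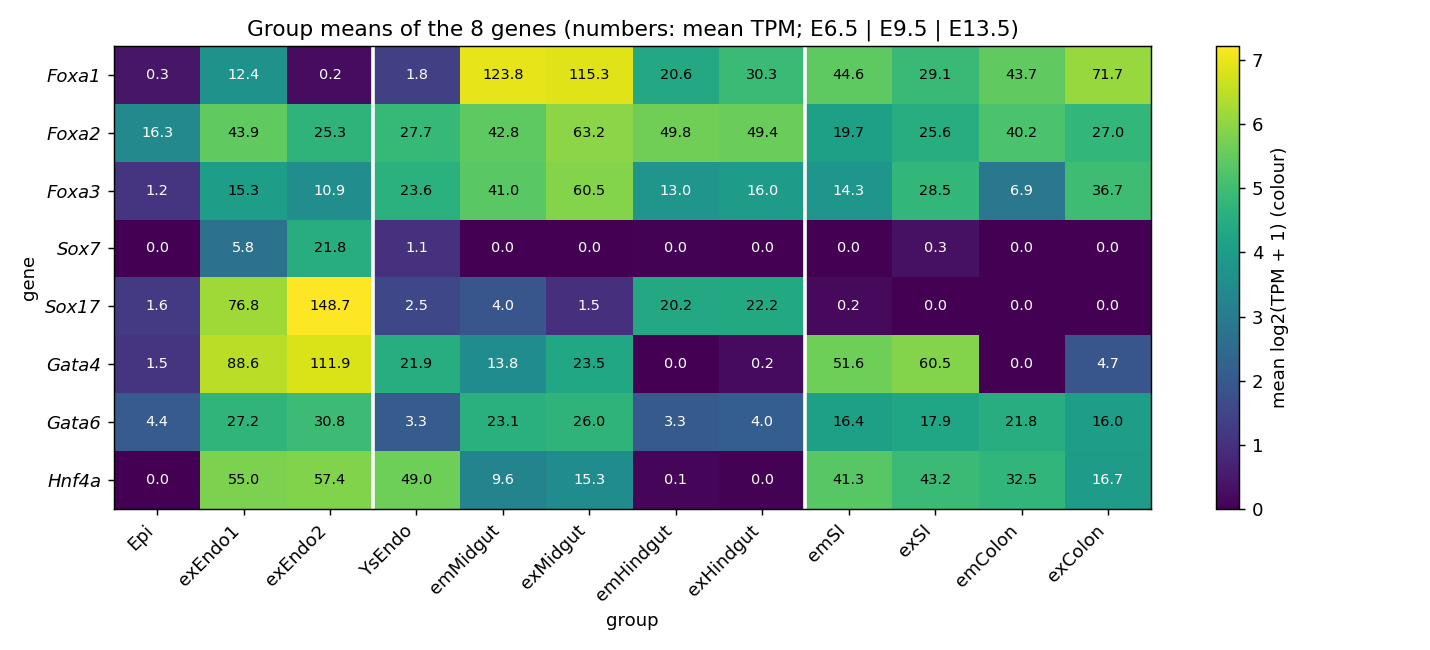
Group means of log2(TPM + 1) for the 8 genes (rows) in the 12 groups (columns), as a colour scale, with the mean TPM printed in each cell. Gata4 and Hnf4a were near 0 in both hindgut groups, and the SOX genes were high in exEndo1 and exEndo2.

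The progenitors of the gut and yolk sac were compared at E6.5. All 8 genes rose in exEndo1 against Epi, where 33.4% of 12057 genes were called in either direction and 19.8% were called higher. The median difference was 3.08 over the 8 genes and 0.09 over all genes tested. On the log2 scale the difference was 5.78 ± 0.17 (SE, adjusted p = 4.37e-10, limma) for Hnf4a, 5.37 ± 0.36 (adjusted p = 3.02e-07) for Gata4 and 4.95 ± 0.41 (adjusted p = 1.27e-06) for Sox17. Foxa1, Foxa3, Sox7 and Gata6 rose by 2.65 to 3.25. For 7 of the 8 the call held without any single library. Foxa2 was called at 2.05 ± 0.82 (adjusted p = 0.0458), with 51.3, 52.3, 34.4 and 37.6 TPM in exEndo1 and 0.121, 21.2, 25.1 and 18.7 TPM in Epi. The Foxa2 call was lost in 10 of 17 alternatives, such as no filter (adjusted p = 0.113) and quantile scaling (0.086). It was also lost without any single exEndo1 library (adjusted p = 0.0652 to 0.0904). Without Epi replicate 1 the Foxa2 difference was 0.97 (adjusted p = 0.00155), under the fold threshold. That Epi library was also the lowest of its group in Gata6, at 0.128 TPM against 4.43 to 8.68 TPM, and in Eomes, a T-box factor of mesendoderm, at 15.6 TPM against 68.5 to 122 TPM.

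In exEndo2 against Epi, 6 of 7 tested genes rose (35.8% of 12046 genes were called, 20.4% as higher), with Sox17 at 5.99 ± 0.32 (adjusted p = 1.59e-08) and Sox7 at 4.497 ± 0.15 (adjusted p = 3.58e-10). Foxa2 was at 1.302 ± 0.79 (adjusted p = 0.169, 95% interval -0.43 to 3.04) and Foxa1 was too low in both groups to be tested. Both comparisons share the 4 Epi libraries. Beside the members, all 7 basement membrane genes of the primitive endoderm list, such as Col4a1 and Nid1, rose against Epi in exEndo1 and in exEndo2, as did all 8 tested genes of a list of known targets. Among these Apoa1, an apolipoprotein, had a mean of 5196 TPM in exEndo1 and 0.815 TPM in Epi. Of the other liver-enriched and gut transcription factors, 6 of 6 tested rose in exEndo1 and 6 of 7 in exEndo2.

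Between distal and proximal extraembryonic endoderm, 3 of 8 genes changed, where 6.41% of 11414 genes were called. Foxa1 was higher in exEndo1 by 3.45 ± 0.27 (adjusted p = 2.05e-05, limma), with every exEndo1 library above every exEndo2 library. Sox7 was lower in exEndo1 by a log2 difference of -1.78 ± 0.19 (adjusted p = 0.000157) and Sox17 by -1.04 ± 0.26 (adjusted p = 0.0215), again without overlap. Without exEndo1 replicate 1, the lowest in Sox17, that difference was -0.72 (adjusted p = 0.00211), under the fold threshold, and without exEndo2 replicate 3 its adjusted p was 0.0614. Foxa2 was higher in exEndo1 by 0.75 ± 0.16 (adjusted p = 0.00954), which is under the fold threshold, and the groups did not overlap. For Gata4, Gata6 and Hnf4a the 95% intervals of the difference were -0.64 to -0.06, -0.82 to 0.41 and -0.39 to 0.26. Of 9 tested genes of the Nodal pathway and mesendoderm list, 7 were higher in exEndo1, with Nodal itself at 40.7 TPM ± 17.6 against 0.59 TPM ± 0.20 (SD, n = 4 each) and the homeobox gene Otx2 at 97.4 TPM ± 72.4 against 0.0605 TPM ± 0.0442. Of the liver-enriched and gut factors Klf4, Klf5 and Elf3 were lower, and of the basement membrane genes Sparc, Col4a2 and Lama1 were lower. The 7 epiblast markers moved the same way, summing to 419 to 591 TPM in exEndo1 and 178 to 240 TPM in exEndo2. EGFP was at 13.7 and 15.9 TPM in exEndo1 replicates 2 and 4, against at most 1.09 TPM in replicates 1 and 3, and Tdgf1, the Nodal co-receptor, at 47.2 and 37.5 TPM against at most 0.698 TPM. The part of epiblast RNA in these values was not tested. The target list was divided, with Afp and Apob higher and Apoa2 lower in exEndo1. Same-numbered exEndo1 and exEndo2 libraries deviated together, and with the replicate number as a block Foxa1, Sox7 and Sox17 were again called (adjusted p = 8.04e-06, 5.2e-05 and 0.0108).

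**Figure D3:**
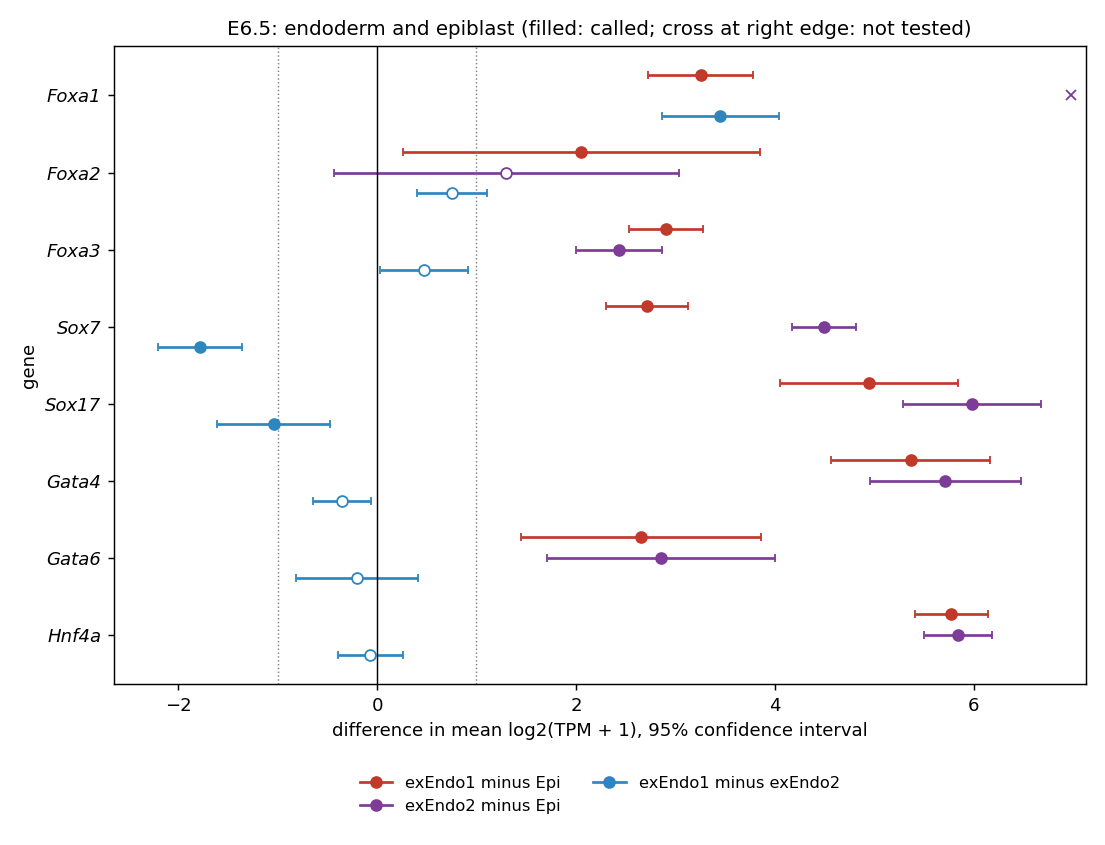
Log2 fold changes with 95% intervals for the 8 genes in the 3 comparisons at E6.5, with filled points for called genes and a cross for Foxa1, which was not tested in exEndo2 against Epi. All 8 genes lay above 0 in exEndo1 against Epi, and Foxa1 and the SOX genes stood on opposite sides of 0 in exEndo1 against exEndo2.

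Gut cells of the 2 origins were compared at E9.5. None of 7 tested members was called between exGut and emGut with limma, where 2.35% of 13473 genes were called. An unadjusted p under 0.05 was reached by 0 members and by 2225 of the 13473 genes. The log2 differences lay between -0.43 (Sox17) and 0.50 (Gata4), with a median of 0.24 against -0.03 over all genes tested. Both groups pool midgut and hindgut, and the 95% intervals ran from -0.10 to 0.60 for Foxa2 up to -1.54 to 2.55 for Gata4. A log2 difference of 1 lay outside the interval for Foxa2 alone among the 7. With the region as a covariate, no member was called either (adjusted p = 0.305 to 0.918). Sox7 was listed at 0 in all exGut libraries and was not tested.

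In the midgut 0 of 7 tested members were called (2.58% of 12432 genes). Foxa2 and Foxa3 had an unadjusted p under 0.05, as had 2054 of the 12432 genes. Foxa2 was at 0.55 ± 0.21 (adjusted p = 0.2) and Foxa3 at 0.51 ± 0.22 (adjusted p = 0.252). Every exMidgut library had more Foxa3 than every emMidgut library, from 47.9 TPM up against 44.02 TPM at most. How many of all genes were parted in this way was not counted. Foxa1 differed by -0.09 ± 0.15, with a 95% interval of -0.41 to 0.23. In the hindgut 0 of 5 tested members were called (3.07% of 12318 genes), and 0 had an unadjusted p under 0.05, against 2363 of the 12318 genes. Foxa1 was at 0.58 ± 0.28 (adjusted p = 0.278) and Sox17 at 0.04 ± 0.34, with a 95% interval of -0.70 to 0.78. Whether the origin difference itself changed with region was tested as an interaction, and 0 of 7 members were called (0.0965% of 13473 genes; adjusted p = 0.644 to 0.997).

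Genes known as targets of these factors were called by origin in the same libraries. In the midgut 6 of 10 genes of the target list were higher in exMidgut, among them Afp, the yolk sac serum protein, with 6588 TPM ± 1543 against 831 TPM ± 157 (SD, n = 4 each; log2 difference 2.97 ± 0.16, adjusted p = 3.3e-08), and Apoa1 at 3.16 ± 0.59 (adjusted p = 0.00746). In the hindgut 3 of 7 were higher in exHindgut, Afp, Ttr and Apob, with Afp at 4.06 ± 0.70 (adjusted p = 0.00362). None of 10 and 7 tested liver-enriched and gut factors was called in the midgut and hindgut. The summed level of 8 visceral and yolk sac endoderm markers was 1338 to 2229 TPM in the exGut libraries and 58.4 to 190 TPM in emGut, and 10 mesenchyme and heart markers summed to 44.8 to 61.9 TPM in exGut and 84.7 to 197 TPM in emGut. The part of either in these values was not tested. Afp is both a target and a yolk sac endoderm gene. Of the other members of the same families, Gata5, Gata3, Gata2, Gata1, Sox18, Hnf4g and the cofactors Zfpm1 and Zfpm2, none of those tested (3 in the midgut and 2 in the hindgut) was called by origin at E9.5.

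Region within the gut divided most of the members. In the embryonic gut 6 of 7 tested members were called between emHindgut and emMidgut, where 13.9% of 12490 genes were called, and in the extraembryonic gut the count was again 6 of 7 between exHindgut and exMidgut (11.3% of 12331 genes). The 6 genes and their directions were the same in both origins. Cells of both origins may come from the same dissected pools, so the counts may not be independent. The median over the members was -2.53 and -1.93, against -0.02 and 0.005 over all genes tested. Foxa1 was lower in the hindgut by a log2 difference of -2.59 ± 0.24 (adjusted p = 2.2e-06, limma) in embryonic and -1.93 ± 0.20 (adjusted p = 1.48e-05) in extraembryonic cells. Foxa3 followed at -1.61 ± 0.22 (adjusted p = 0.000103) and -1.92 ± 0.32 (adjusted p = 0.000905). Foxa2, in contrast, was at 0.23 ± 0.18 (95% interval -0.15 to 0.62) and -0.37 ± 0.23 (-0.86 to 0.13) and was not called.

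Gata6 was lower in the hindgut at -2.53 ± 0.30 (adjusted p = 2.4e-05) and -2.55 ± 0.41 (adjusted p = 0.000629). Gata4 was listed at 0 in all 4 emHindgut libraries, so no fold is given (adjusted p = 0.000351), and in extraembryonic cells its difference was -4.08 ± 0.52 (adjusted p = 0.000105). Hnf4a was lower at -3.17 ± 0.43 (adjusted p = 7.8e-05) and -3.46 ± 0.64 (adjusted p = 0.00188). Sox17 was the single member that was higher in the hindgut, by 2.43 ± 0.55 (adjusted p = 0.0046) in embryonic and 3.38 ± 0.55 (adjusted p = 0.00068) in extraembryonic cells. The 6 calls of each origin held without any single library.

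**Figure D4:**
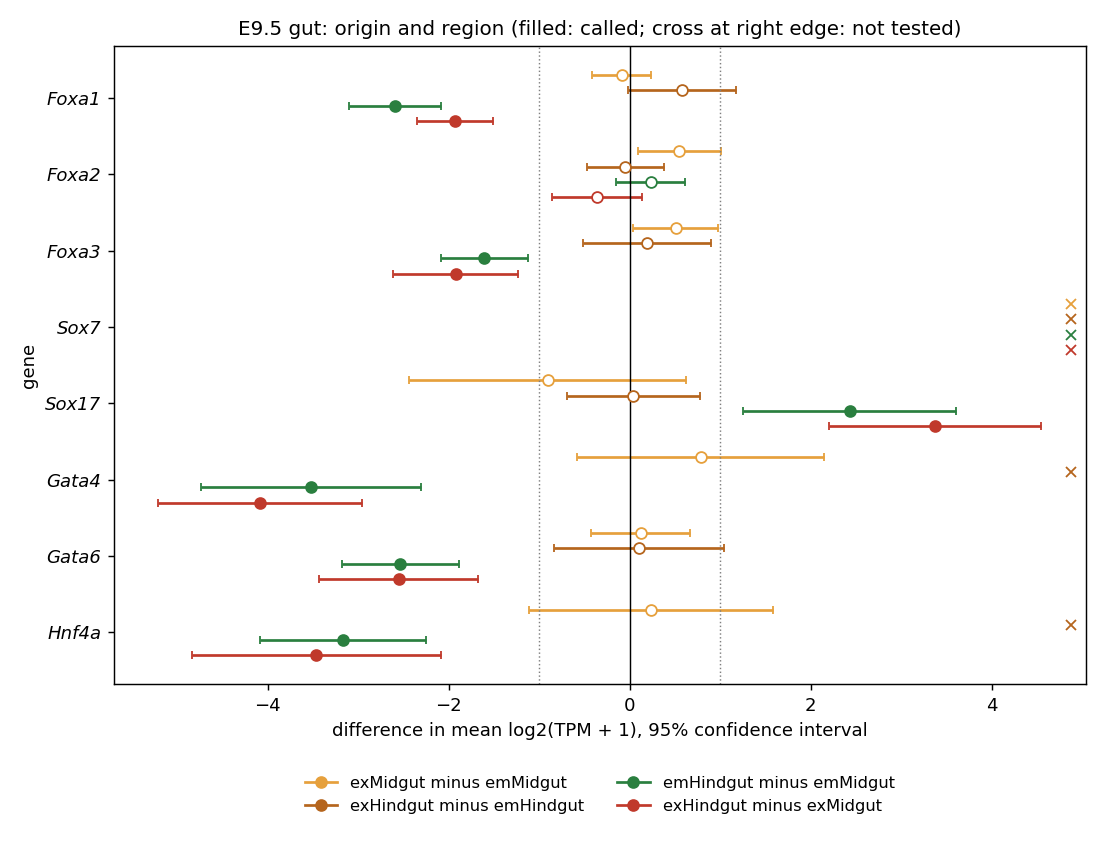
Differences in mean log2(TPM + 1) with 95% intervals for the 8 genes at E9.5, by origin within each region and by region within each origin, with filled points for called genes and crosses for those not tested. Foxa1, Foxa3, Gata4, Gata6 and Hnf4a lay below 0 and Sox17 above 0 for hindgut minus midgut in both origins, and no difference by origin was called. The drawn Gata4 difference for emHindgut is against libraries at 0 and has no meaning as a fold.

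The other lists moved with region too. All 8 tested targets were lower in emHindgut than in emMidgut, and all 10 were lower in exHindgut than in exMidgut, with Apoa1 at a mean of 4.45 TPM against 1440 TPM in the extraembryonic groups. Onecut1, a partner of HNF4A in liver, was listed at 0 in both hindgut groups and had means of 12.1 TPM in emMidgut and 18.7 TPM in exMidgut. Nr5a2 was lower in the hindgut at -3.35 ± 0.31 (adjusted p = 2.2e-06) and -3.96 ± 0.39 (adjusted p = 1.22e-05). T, the T-box factor of posterior mesoderm and notochord, was higher in the hindgut by 6.45 ± 0.62 (adjusted p = 3.03e-06) and 6.56 ± 0.51 (adjusted p = 1.37e-06). Epithelial markers also differed with region, summing to 2105 to 2694 TPM in emHindgut and 5534 to 6580 TPM in emMidgut, and their part in the members' values was not tested. Midgut libraries also varied among themselves, and replicate 1 had the lowest Gata4, Hnf4a and Apoa1 in emMidgut and in exMidgut.

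Gut cells were next set against the yolk sac endoderm, which shares the host origin with exGut. In exGut against YsEndo 2 of 7 tested members were called (42.4% of 12801 genes). Foxa1 was higher in exGut by 4.54 ± 0.51 (adjusted p = 3.01e-06, limma), and Hnf4a was lower, with a log2 difference of -3.87 ± 0.92 (adjusted p = 0.00226). The median of all genes was 0.59 here, and median-ratio rescaling moved it by -0.55. After it Foxa1 was at 4.09 and Hnf4a at -4.32, both called, and Gata4 was called as well (-2.72, adjusted p = 0.0262). Foxa3, at 0.32 as deposited and -0.25 after rescaling, had no stable sign. In emGut against the same YsEndo libraries 3 of 7 were called (46.6% of 13029 genes), Foxa1 at 4.29 ± 0.66 (adjusted p = 5.41e-05), Hnf4a at -3.96 ± 0.78 (adjusted p = 0.000462) and Gata4 at -2.75 ± 0.92 (adjusted p = 0.0165). As deposited, Gata4 in exGut was at -2.25 ± 1.007 (adjusted p = 0.0647). Foxa2 was higher than in YsEndo by 0.96 ± 0.20 (adjusted p = 0.000935) and 0.71 ± 0.15 (adjusted p = 0.000829), both under the fold threshold, and after median-ratio rescaling they were 0.38 (adjusted p = 0.124) and 0.11 (adjusted p = 0.521). Without exHindgut replicate 1, Foxa2 (1.07) and Gata6 (1.64) were called too in exGut. Of the target list 8 genes were lower in exGut, with Apoa2 at a mean of 76.7 TPM against 6137 TPM.

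In the E13.5 intestine the disrupted gene Trp53 was still read at 33.4, 167 and 117 TPM in exSI and 42.5, 124 and 122 TPM in exColon, against 158 to 201 TPM in emSI and 151 to 245 TPM in emColon. Its difference was -1.11 ± 0.34 (adjusted p = 0.192, limma), and a level over the whole transcript does not show whether the gene is edited. None of 6 tested members was called between extraembryonic and embryonic libraries with the organ as a covariate (0.625% of 12483 genes). An unadjusted p under 0.05 was reached by 1415 of the 12483 genes and by 1 member. That gene was Foxa3, at 1.53 ± 0.48 (adjusted p = 0.209), with 14.7, 32.9 and 38.0 TPM in exSI, 6.02, 17.5 and 19.4 TPM in emSI, 12.6, 34.5 and 63.0 TPM in exColon and 6.88, 3.89 and 9.85 TPM in emColon. The colon groups did not overlap and the small intestine groups did, which with 3 libraries each is a description and not a test. Foxa1 differed by 0.04 ± 0.32 (95% interval -0.64 to 0.71) and Foxa2 by -0.00 ± 0.47 (-0.99 to 0.99). The interaction of origin and organ called 0 of 6 members (0.016% of 12483 genes), with 0 at an unadjusted p under 0.05, against 1038 of the 12483 genes. Afp was the 1 gene of the target list called, at 2.33 ± 0.28 (adjusted p = 0.000159).

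Between organs, Gata4 was the 1 of 6 tested members called in embryonic cells (0.472% of 11239 genes), listed at 0 in all 3 emColon libraries and at 29.9, 68.2 and 56.7 TPM in emSI (adjusted p = 0.00806). The call was lost without any single emSI library (adjusted p = 0.0531 to 0.085). In extraembryonic cells 0 of 6 members were called (0.693% of 11405 genes). An unadjusted p under 0.05 was reached by 2 members and by 1221 of the 11405 genes. There Gata4 was at -3.97 ± 0.83 (adjusted p = 0.0575) with no overlap between groups, and Foxa1 at 1.22 ± 0.42 (adjusted p = 0.284), higher in every exColon library. The share of all genes without overlap was not counted here either. The Gata4 paralogue Gata5 was lower in exColon than in exSI, by a log2 difference of -4.17 ± 0.75 (adjusted p = 0.0304). Mesenchyme and heart markers summed to 382 to 484 TPM in emColon, 298 to 387 TPM in exColon, 18.7 to 435 TPM in emSI and 19.2 to 31.0 TPM in exSI, and their part in these differences was not tested. Hnf4a, near 0 in the hindgut at E9.5, was at 56.8, 31.4 and 9.36 TPM in emColon and at 6.07, 22.2 and 21.9 TPM in exColon.

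Changes along each lineage were read between stages, which also differ in dissection and sorting and, for extraembryonic cells between E9.5 and E13.5, in genotype (WT and Trp53 KO). These cannot be told apart from stage. From Epi to emGut 4 of 7 tested members rose (29.7% of 13053 genes were called, 22.4% as higher), Foxa1 by 5.23 ± 0.63 (adjusted p = 1.05e-05, limma), Foxa3 by 3.48 ± 0.41 (adjusted p = 9.46e-06), Foxa2 by 2.14 ± 0.62 (adjusted p = 0.0107) and Sox17 by 1.89 ± 0.75 (adjusted p = 0.0475). The Sox17 call was lost in 16 of 21 alternatives. Among them were the replicate block (adjusted p = 0.0594), median-ratio rescaling (0.0693) and leaving out any single Epi library (0.0539 to 0.148). From exEndo1 to exGut 5 of 8 changed (30.3% of 12931 genes). Foxa1 rose by 2.22 ± 0.49 (adjusted p = 0.00176), while Gata4 fell by 4.21 (adjusted p = 0.00306), Hnf4a fell by 4.02 (adjusted p = 0.00239) and Sox17 fell by 3.48 (adjusted p = 0.00475). These values pool regions that differ. The mean log2 level of Gata4 was 6.47 in exEndo1, 4.30 in exMidgut and 0.22 in exHindgut, that of Hnf4a was 5.79, 3.50 and 0.04, and that of Sox17 was 6.18, 1.013 and 4.39. Sox7 fell from 3.64 to 6.93 TPM to 0 in every exGut library (adjusted p = 8.35e-07). From exEndo2 to YsEndo 5 of 7 changed (29.6% of 11205 genes), with Foxa3 higher by 1.08 ± 0.19 (adjusted p = 0.000236) and Sox17, Sox7, Gata6 and Gata4 lower by log2 differences of -5.67 to -2.31. Without exEndo2 replicate 1 the Foxa3 difference was 0.92, under the fold threshold. Hnf4a differed there by -0.22 (95% interval -0.48 to 0.05).

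The difference between the origins was tested for change between stages, as exGut minus emGut at E9.5 against exEndo1 minus Epi at E6.5. It was smaller at E9.5 for 6 of 8 members (27.5% of 14089 genes called), with Hnf4a at -5.69 ± 1.29 (adjusted p = 0.0016), Sox17 at -5.38 ± 1.24 (adjusted p = 0.00187), Gata4 at -4.86 ± 1.48 (adjusted p = 0.0153), Foxa1 at -3.01 ± 0.85 (adjusted p = 0.00939), Sox7 at -2.74 ± 0.24 (adjusted p = 4.15e-09) and Foxa3 at -2.56 ± 0.70 (adjusted p = 0.00703). Gata6 was at -2.54 ± 1.05 (adjusted p = 0.0747) and Foxa2 at -1.80 ± 0.71 (adjusted p = 0.0592). All 7 basement membrane genes and 7 of 10 targets were called in the same direction.

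From E9.5 to E13.5 the embryonic libraries had 3 of 7 tested members called (20.4% of 13017 genes), with Hnf4a higher by 3.37 ± 0.51 (adjusted p = 0.000179) and Sox17 (-3.04 ± 0.54, adjusted p = 0.000723) and Foxa3 (-1.24 ± 0.31, adjusted p = 0.0071) lower. The Foxa3 difference was -0.95 after median-ratio rescaling, which moves the median of all genes here by 0.28, and -0.98 without emSI replicate 1, both under the fold threshold. The extraembryonic libraries had 4 of 7 called (15.2% of 12945 genes), with Hnf4a (2.67 ± 0.64, adjusted p = 0.00679) and Gata4 (1.64 ± 0.51, adjusted p = 0.0278) higher, Foxa2 lower (-1.16 ± 0.30, adjusted p = 0.0109) and Sox17 listed at 0 in all 6 later libraries (adjusted p = 0.00339). Without exSI replicate 2 the calls of Foxa2 (-0.85) and Gata4 (adjusted p = 0.0522) were lost, and Gata4 was also lost without exMidgut replicate 1, exSI replicate 3 or exColon replicate 1 (adjusted p = 0.0533 to 0.0663). Among the liver-enriched and gut factors 5 of 11 rose in the embryonic and 7 of 11 in the extraembryonic gut over the same interval, with Elf3, Klf5, Onecut2 and Nr1h4 among them in both. The HNF4A paralogue Hnf4g rose in both as well.

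The members' patterns over the 12 group means were compared with one another and with 15082 genes, as a description without a test, since all groups share a method and several share tissue. Among members the highest correlations were those of Sox7 with Sox17 and of Gata4 with Hnf4a (Pearson r = 0.769 each over 12 groups), and the lowest was that of Foxa1 with Sox7 (-0.6). After each library was centred on its group, Sox7 and Sox17 were at -0.147 and Gata4 and Hnf4a at 0.278 over the 44 libraries. The genes most like each member over the 12 groups were Bin3 (0.963), Bmp1 and Gm8113 for Foxa1, Fignl2 (0.968), Pip4p2 and Gpc3 for Foxa2, and Ccdc68 (0.962), Ppt1 and Cyp4f13 for Foxa3. They were Ccdc180 (0.988), Phospho1 and Runx3 for Sox7, Wnt11 (0.943), Hus1b and Mapkap1 for Sox17, and Uaca (0.946), Rubcn and Tfcp2l1 for Gata4. Gata6 was followed most closely by Zfp595 (0.933), Araf and Wee1, and Hnf4a by Apoa1 (0.958) and Clic5.

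**Figure D5:**
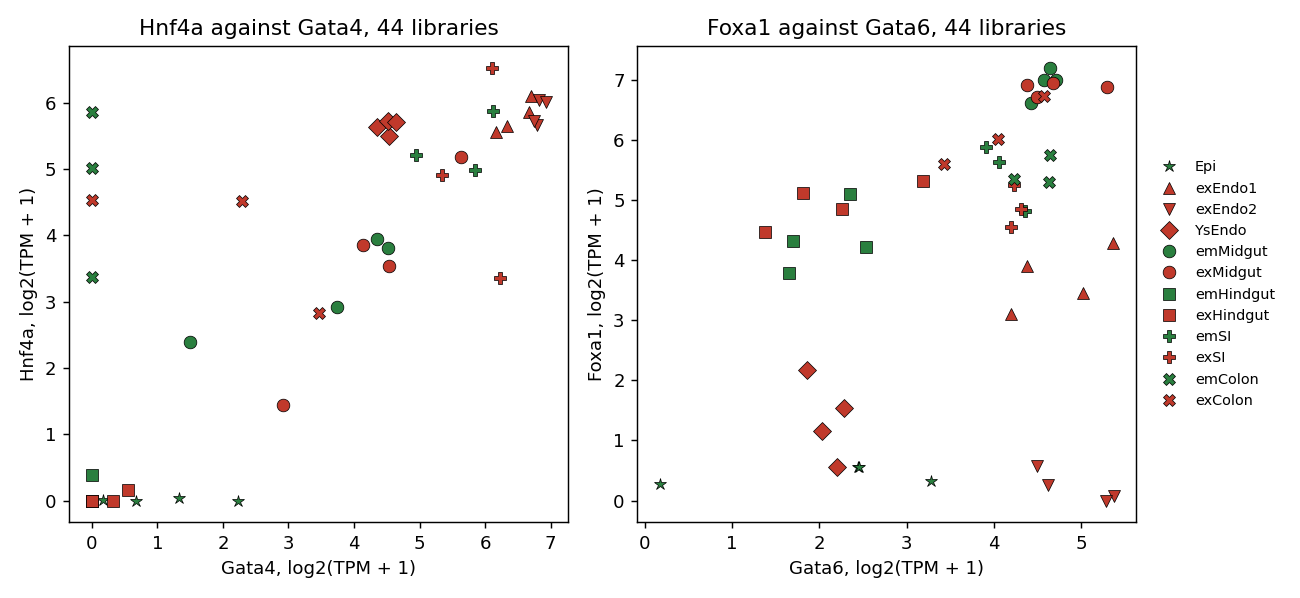
Hnf4a against Gata4 (left) and Foxa1 against Gata6 (right) in the 44 libraries, as log2(TPM + 1) on both axes, with a marker shape for each group and green and red for embryonic and extraembryonic origin. The emColon libraries held Hnf4a (9.36 to 56.8 TPM) with Gata4 at 0, and the exEndo2 libraries held Gata6 (21.6 to 40.4 TPM) with Foxa1 at 0.489 TPM or less.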

How the data were processed

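RNA-seq was made from small numbers of cells per library as amplified, unstranded poly(A) cDNA. Adapters were removed by the authors (cutadapt 4.1), followed by alignment in STAR 2.7.9a against mm10 plus both reporter transgenes and quantification in StringTie 2.0.6 on GENCODE annotation, per the submitters' processing notes and the study's methods. The deposited tables give TPM and FPKM per gene, normalised by the authors within each library for transcript length and library total. They also give the mean read coverage of each gene, deposited as StringTie wrote it. Coverage was used here to estimate depth only, since the deposited values hold no read counts.

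TPM was summed per gene identifier (3 to 11 rows per file were repeats). Of 32287 identifiers 32235 matched GENCODE vM21, from which gene types were taken. Protein-coding genes outside chromosome Y with TPM above 1 in at least 4 libraries of a comparison (3 where all are from E13.5) were tested on log2(TPM + 1) with limma 3.58.1 (R 4.3.3, trended empirical Bayes, two-sided, Benjamini-Hochberg adjustment) in 21 comparisons. The study tested the gut origins on counts, and limma was used because TPM is not a count. The test was checked on simulated data. Figures and summaries used Python 3.11.15, pandas 2.3.3, numpy 2.4.6 and matplotlib 3.10.9.

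The members and gene lists were chosen with earlier results of these data known. All members were named, with values for at most 3 called genes per list and comparison (those with the largest log2 difference) and for the 3 genes most like each member over group means. Eomes in Epi, Gata5 in the colon and the genes of the Epi replicate 1 comparison were given after their values were seen. Some genes of the lists are counted but not reported here by name. Single embryos or pools were the replicates, and p-values measure only the spread between these libraries. Intervals are 95% intervals of the fit, and depth limits low levels such as those of Sox7.

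Replicate numbers recur across groups. Same-numbered exEndo1 and exEndo2 libraries deviated together (r = 0.167 to 0.402, each closest to its own number), which was taken as pairing. In the other comparisons the pairs were not shown to match. Alternatives were another pseudocount (0.1), no filter, quantile and median-ratio scaling, FPKM, no trend, all gene types, all 44 libraries in a single fit, the replicate block, a region covariate and leaving out each library.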

Additional observations from a re-analysis of the deposited data

Results flagged for a closer look

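Of 60 sets of 1 member in 1 group of 4 libraries, 4 held a library apart from the other 3 by Dixon's criterion, and chance flags about 1 in 20 sets. In all 4 the other libraries were at 0, so that any value above 0 meets the criterion, and nothing is read from it. Sox7 was at 0.0294 TPM in Epi replicate 1 and at 0.129 TPM in emHindgut replicate 4, and the other 3 libraries of each group were at 0. Hnf4a was at 0.308 TPM in emHindgut replicate 4 and at 0.116 TPM in exHindgut replicate 3, again with the others at 0.

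The difference between extraembryonic and embryonic libraries changed between E6.5 (exEndo1 against Epi) and E9.5 (exGut against emGut) for 6 members, by an interaction term in limma. The change in log2 difference was -3.01 for Foxa1, -2.56 for Foxa3, -2.74 for Sox7, -5.38 for Sox17, -4.86 for Gata4 and -5.69 for Hnf4a. The Gata4 call was lost with a pseudocount of 0.1 (adjusted p = 0.107). The stages also differ in dissection and sorting and in the tissues compared, endoderm with epiblast and then gut with gut, which cannot be told apart from stage.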

How the results depend on the processing

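No call reversed its direction. The number of members called stayed at 0 under every alternative for exGut against emGut, both regions by origin and both interactions of origin with region or organ, and at 6 for exEndo2 against Epi and for hindgut against midgut in each origin. With all 44 libraries in a single fit it rose from 2 to 5 for exGut and from 3 to 5 for emGut against YsEndo, from 0 to 1 for origin at E13.5 (Foxa3) from 0 to 2 for exColon against exSI, from 4 to 6 for emGut against Epi and from 6 to 8 for origin by stage, and it fell from 3 to 2 for exEndo1 against exEndo2 (Sox17, adjusted p = 0.398). For exColon against exSI it was 1 after quantile or median-ratio scaling and with FPKM. For emColon against emSI it was 0 with no filter on low values. Leaving out 1 library gave 2 to 4 for exGut against YsEndo, 0 to 1 for emColon against emSI, 0 to 1 for exColon against exSI (1 without exColon replicate 1) and 2 to 4 for extraembryonic E13.5 against E9.5 (2 without exSI replicate 2). The cause of these changes was not tested. Among single genes, Foxa3 was also called in exGut against exEndo1 without exHindgut replicate 4 (1.16), Sox17 in emGut against YsEndo without emMidgut replicate 4 (2.03), and Foxa2 in embryonic E13.5 against E9.5 without emColon replicate 2 (-1.17) or emSI replicate 1 (-1.11). Gata6 was called in emGut against YsEndo without emHindgut replicate 1 or 2 (1.46 and 1.47) and in exGut against YsEndo without exHindgut replicate 4 (1.57). In the same way Gata4 was called in exGut against YsEndo without exMidgut replicate 2, 3 or 4. In the origin by stage term, Foxa2 was called without Epi replicate 2, 3 or 4 and Gata6 without exMidgut replicate 4 or emHindgut replicate 1 or 2.

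With the replicate block, exColon against exSI had 1 member called (Gata4, adjusted p = 0.0455), and Sox17 was lost in emGut against Epi. No other member's call changed with the block, which was shown to pair libraries in exEndo1 and exEndo2 alone.

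Counts over all genes moved by more than 1.5 times in several comparisons. With all 44 libraries in a single fit they went from 732 to 458 for exEndo1 against exEndo2, from 316 to 591 for exGut against emGut (587 with the region covariate), from 13 to 47 for origin by region, from 78 to 1207 for origin at E13.5, from 2 to 1409 for origin by organ, from 53 to 1488 for emColon against emSI and from 79 to 1320 for exColon against exSI. Without a filter they were 173 and 223 for origin in midgut and hindgut (321 and 378 as reported), 3 for emColon against emSI and 2 for exColon against exSI. With a pseudocount of 0.1, origin by region and origin by organ had 0 each and exColon against exSI 11, without a filter or without a trend origin by region had 8 each and origin by organ 14 and 6, and quantile scaling left 1536 of 2654 for embryonic E13.5 against E9.5.

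Median-ratio scaling moved the median log2 difference of all genes by -0.56 for emGut against YsEndo, by -0.31 for emGut against Epi, by 0.44 for YsEndo against exEndo2, by -0.15 for exEndo1 against Epi, by 0.16 for origin by stage and by 0.17 for extraembryonic E13.5 against E9.5. After it Foxa2 was lost in exEndo1 against Epi (adjusted p = 0.0646) and in extraembryonic E13.5 against E9.5 (-0.99), and Gata6 was called in embryonic E13.5 against E9.5 (1.26).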

Other observations

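Epi replicate 1 stood below the other 3 Epi libraries in several genes of the mesendoderm list as well as in Foxa1, Foxa2, Sox17, Gata4 and Gata6. It held 1.90 TPM of Mixl1 against 141 to 227 TPM, 0.122 TPM of Lhx1 against 37.1 to 48.9 TPM and 1.05 TPM of T against 23.4 to 53.5 TPM. Otx2, at 331 TPM against 268 to 359 TPM, lay among the others. Nodal was highest in this library, at 28.4 TPM against 9.99 to 25.5 TPM. In exColon replicate 1, Foxa3, Gata6, Hnf4a and Trp53 were the lowest of the group and Gata4 was the highest.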
